A study of Mus musculus with 4 samples.

Results

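Cells carry enzymes that detect DNA in the wrong compartment and enzymes that clear it, and 7 genes of this system were examined in activated mouse B cells, out of 55401 genes in the deposited count table. The genes were chosen by symbol: the cytosolic DNA sensor cGAS, its partner STING, and the nucleic acid clearing enzymes TREX1, SAMHD1 and the 3 subunits of ribonuclease H2. The table names the first pair Cgas (older symbol Mb21d1) and Sting1 (older symbol Tmem173), and all 7 genes were found. Poly(A) RNA was sequenced from 2 libraries labelled Adar1 cKO, a B-cell conditional knockout of the RNA editing enzyme ADAR1, and from 2 wild-type libraries. All libraries came from C57BL/6 splenic B cells, enriched with anti-CD43 beads. The cells were stimulated in culture through CD40 (antibody at 1 µg/ml) and the B-cell receptor (anti-IgM at 10 µg/ml), and collected after 36 h. The Cre driver, the deleted part of Adar, the age of the mice and whether each library is a separate mouse or culture are not given in the labels. The spread behind each p-value is thus that among these 4 libraries and may be partly technical.

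As background, cGAS binds double-stranded DNA in the cytosol and makes the messenger cGAMP. STING, a membrane protein of the endoplasmic reticulum, binds cGAMP and recruits the kinase TBK1, which activates the transcription factor IRF3 and so the type I interferon genes. TREX1 degrades DNA ends, SAMHD1 hydrolyses deoxynucleoside triphosphates, and ribonuclease H2 cuts the RNA strand of RNA-DNA hybrids and starts the removal of single ribonucleotides from DNA. In humans, inherited loss of TREX1, SAMHD1, any ribonuclease H2 subunit or ADAR1 causes Aicardi-Goutières syndrome, a disease with chronic interferon signalling.

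Total counts per library were 17993261 and 17449871 in Adar1 cKO-labelled libraries 1 and 2, and 17327480 and 19669651 in wild-type libraries 1 and 2. Levels are given in CPM, the count scaled to library size by the TMM method. Each change is the log2 level in cKO-labelled libraries less that in wild type, with its SE (n = 2 per genotype). Adar, the targeted gene, stood at 218 and 233 CPM in the cKO-labelled libraries, against 137 and 149.97 CPM in wild type, a change of 0.65 ± 0.063. This direction goes against the label, gene-level counts do not isolate the deleted part, and the libraries are called cKO-labelled throughout. Of the 7 B-cell markers examined, all were expressed in both genotypes, and their summed level was 3440 and 3540 CPM in cKO-labelled libraries, against 4530 and 4510 CPM in wild type. Cd79a, a chain of the B-cell receptor, was at 730.0 and 744 CPM in cKO-labelled libraries and at 964 and 908 CPM in wild type.

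The upstream sequences of Cgas and Samhd1 are shown first because these were the 2 genes of the group with the largest changes. Both come from RefSeq windows on GRCm38.p6, on the minus strand, written 5′ to 3′. Of the Samhd1 window only the first 81 bases are printed, at chr2:157135266-157135346, 250 to 170 bases before the RefSeq start, since the deposited table places the remaining 169 bases inside the gene. The Cgas sequence covers all 250 bases before its start, at chr9:78443238-78443487.
Samhd1: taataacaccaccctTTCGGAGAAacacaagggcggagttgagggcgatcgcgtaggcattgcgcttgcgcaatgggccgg
Cgas: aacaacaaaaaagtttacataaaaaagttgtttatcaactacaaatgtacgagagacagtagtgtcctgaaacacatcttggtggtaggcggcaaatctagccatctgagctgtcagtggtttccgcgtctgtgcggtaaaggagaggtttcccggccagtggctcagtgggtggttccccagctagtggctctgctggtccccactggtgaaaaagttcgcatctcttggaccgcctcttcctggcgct
Capitals mark a match to TTCNNNGAA, the pattern of the gamma-activated site that STAT dimers bind. The match starts 235 bases before the RefSeq start of Samhd1, which the deposited table places inside the gene. This pattern was present in 7.02% of 32851 promoter windows of 250 bases, searched on both strands. The interferon-stimulated response element, searched as GAAA and GAAA with any 2 bases between, was in 2.98% of the windows and in the windows of 5 of 9 genes of the interferon-induced list described further on that had one. It matched in none of the windows available for 5 of the 7 genes, and for Cgas none of the 6 patterns searched matched. Sting1 and Rnaseh2b had no window and were not searched. Of the other patterns, TTTNGCGC (an E2F site, in 1.13% of all windows) and GCGCAT followed by GCGC (an NRF1 site, in 0.782%) matched in none of the 5 genes. The GC box GGGCGG, in 32.7% of all windows, matched in Samhd1, Trex1 and Rnaseh2a, and CCAAT, in 33.8%, in Rnaseh2a. A match is a run of letters in this window and was not tested as a binding site.

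Of the 6 genes that passed the filter on low counts, Cgas, Sting1 and Samhd1 were called higher in the cKO-labelled libraries, Rnaseh2c was called lower, and Rnaseh2a and Rnaseh2b were not called. Calls were made at an adjusted p under 0.05 (edgeR quasi-likelihood test, Benjamini-Hochberg adjustment over 14180 genes), written below as the edgeR adjusted p. Of all genes tested, 21.7% were called, 12.2% higher and 9.54% lower. The libraries of the genotypes did not overlap for 4 of the 6 genes, 3 higher and 1 lower, against 57.9% of all genes tested, 29.2% higher and 28.7% lower. The seventh gene, Trex1, had no counts and was not tested, so these numbers do not describe the whole group. The median change of the 6 genes was 0.16, against -0.006 for all genes tested. Of all genes tested, 93.2% had a lower change than Cgas, 89.9% than Samhd1 and 82.5% than Sting1. The same share was 57.2% for Rnaseh2b, 30.4% for Rnaseh2a and 22.2% for Rnaseh2c.

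The sensing pair, Cgas and Sting1, was higher in the cKO-labelled libraries, by different amounts and from very different levels. Cgas (ENSMUSG00000032344, chromosome 9, 78430526 to 78443237, minus strand), which encodes the sensor, had 6.996 and 5.79 CPM in the cKO-labelled libraries, against 3.77 and 3.66 CPM in wild type. The genotypes did not overlap, and the spread between the cKO-labelled libraries was wider than that in wild type. Its change was 0.78 ± 0.23, or 1.72-fold, with an edgeR adjusted p of 0.0183. In bulk RNA, fewer cells of a type and less RNA per cell cannot be told apart, here and in the results that follow. The Cgas values rest on 126 and 101 counts in cKO-labelled libraries and 65 and 72 in wild type, whose pooled count ratio had an exact 95% binomial interval of 1.39 to 2.15, for counting error only. The call did not hold without wild-type library 2 (0.75, edgeR adjusted p 0.0691) or without cKO-labelled library 1 (0.64, edgeR adjusted p 0.129), nor with DESeq2 (0.78, adjusted p 0.0769).

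Sting1 (ENSMUSG00000024349, chromosome 18, 35733679 to 35740554, minus strand), which encodes the receptor for cGAMP, had 183 and 190.0 CPM in the cKO-labelled libraries, against 158 and 148 CPM in wild type. Every cKO-labelled library was above every wild-type library. The change was 0.29 ± 0.060, or 1.22-fold, with an edgeR adjusted p of 0.00103. No Sting1 exon shares bases with another annotated gene. The call held under all 10 alternatives run, with changes from 0.24 to 0.32.

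Within a library, library size cancels from the ratio of a pair of genes. The count ratio of Cgas to Sting1 was 0.0382 and 0.0305 in the cKO-labelled libraries, against 0.0239 and 0.0247 in wild type. The ratios did not overlap, with a log2 difference of 0.49 (SD 0.23 in cKO-labelled, 0.031 in wild type). The two-sided exact permutation p was 0.333, the smallest that 2 against 2 libraries allow. Without cKO-labelled library 1 the difference was 0.33.

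**Figure D1:**
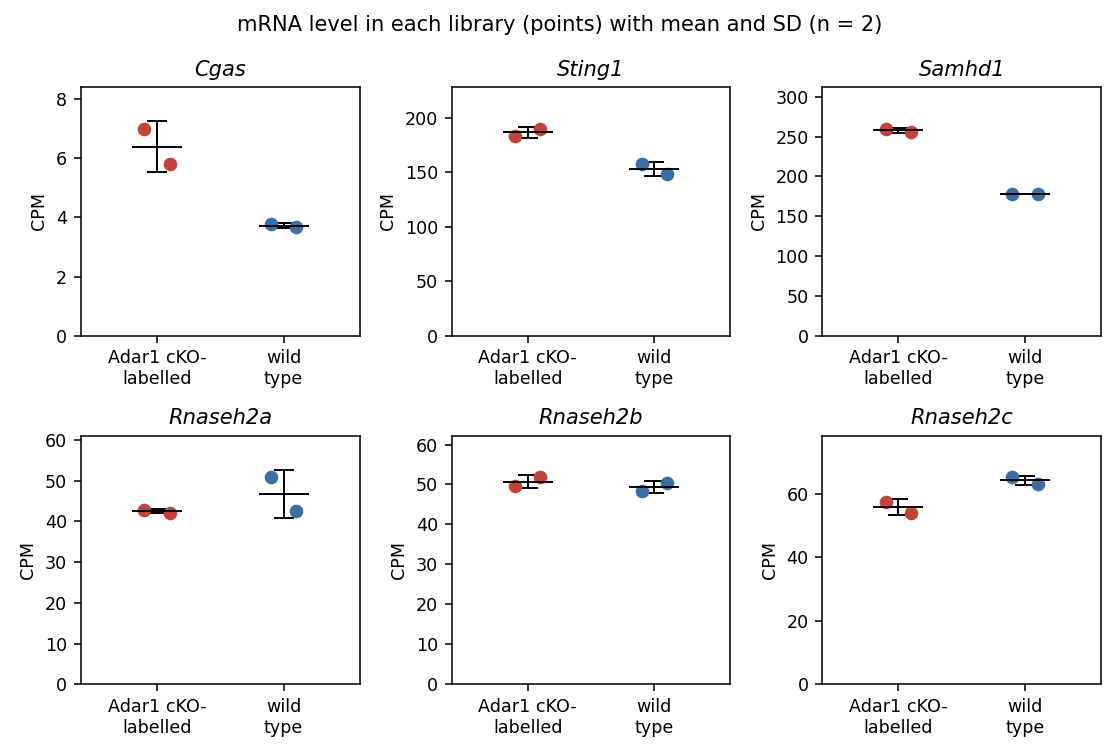
CPM of each of the 6 genes with counts in every library (points), with the mean and SD (n = 2 per genotype) as bars, each axis starting at 0. Cgas, Sting1 and Samhd1 were higher in both cKO-labelled libraries than in both wild-type libraries, Rnaseh2c was lower, and the genotypes overlapped for Rnaseh2a and Rnaseh2b.

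Of the clearing enzymes, only Samhd1 was called higher, and it had the smallest p of the 6 tested genes. Samhd1 (ENSMUSG00000027639, chromosome 2, 157097533 to 157135265, minus strand) had 260.1 and 256 CPM in the cKO-labelled libraries, against 178 and 178 CPM in wild type. The libraries of each genotype lay close together and did not overlap. Its change was 0.54 ± 0.058, or 1.45-fold, with an edgeR adjusted p of 1.71e-07. All 10 alternatives kept the call, with changes from 0.53 to 0.55, and no exonic base of Samhd1 is shared with another annotated gene.

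Trex1 (ENSMUSG00000049734, chromosome 9, 109057933 to 109059734, minus strand) had 0 counts in each of the 4 libraries, which as counting alone would allow 0.167 and 0.172 CPM in the cKO-labelled libraries and 0.174 and 0.153 CPM in wild type (3 counts per library). All 1147 exonic bases of Trex1 (100%) lie within exons of Atrip, a gene on the same strand that encodes a partner of the checkpoint kinase ATR. Counting that sets aside reads falling on more than 1 gene leaves no base for such a gene, and the setting used is not given in the sources used here. Of 140 protein-coding genes whose exonic bases are all shared with another gene on the same strand, 108 (77.1%) had no count in any library, against 5261 of 15355 (34.3%) of those that share none. Whether Trex1 reads were set aside was not tested. The 0 is therefore not read as absence of Trex1 mRNA, no fold is given, and its ratio to Samhd1 could not be computed.

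The neighbours of Trex1 were measured. Atrip had 33.2 and 32.0 CPM in the cKO-labelled libraries, against 33.7 and 28.8 CPM in wild type, a change of 0.06 ± 0.098 with an edgeR adjusted p of 0.725. The genotypes overlapped. Shisa5, which lies on the opposite strand, 156 bases from Trex1, and shares no exonic base with it, had 893 and 926 CPM in the cKO-labelled libraries, against 591 and 581 CPM in wild type. That change was 0.63 ± 0.054 with an edgeR adjusted p of 4.36e-09.

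**Figure D2:**
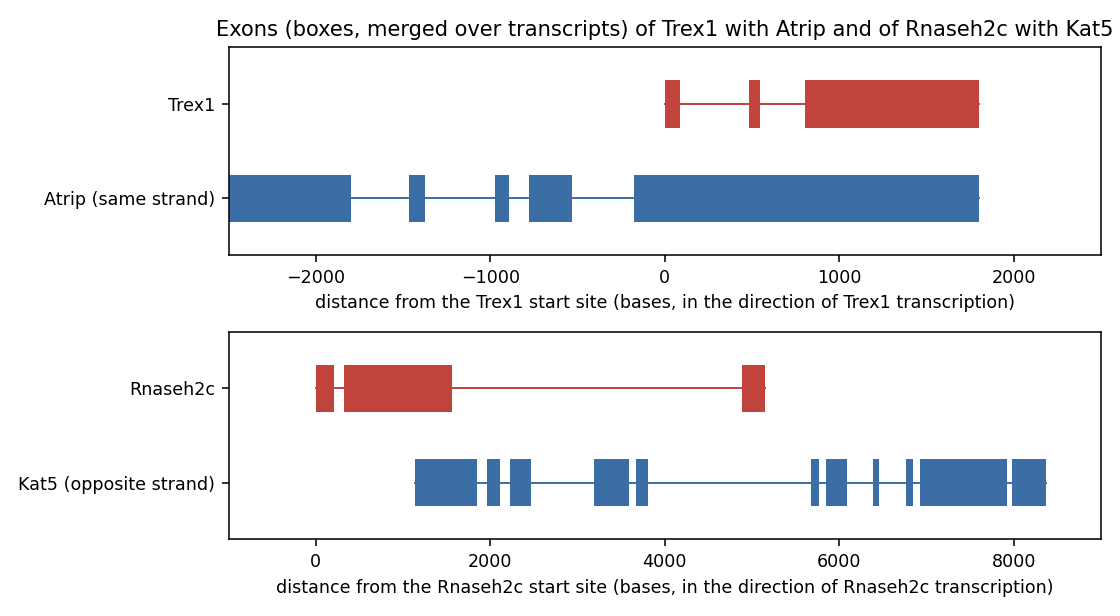
Exons merged over transcripts (boxes, GENCODE M21) of Trex1 with Atrip (upper panel) and of Rnaseh2c with Kat5 (lower panel), by distance in bases from the start of the first gene. The exonic bases of Trex1 all lie within Atrip (100%), while 24.8% of those of Rnaseh2c lie within Kat5 on the opposite strand.

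None of the 3 subunits of ribonuclease H2 was called higher. Rnaseh2a (ENSMUSG00000052926, chromosome 8, 84956610 to 84969767, minus strand), which encodes the catalytic subunit, had 42.9 and 42.1 CPM in the cKO-labelled libraries, against 50.8 and 42.5 CPM in wild type. Only wild-type library 1 stood apart, and the gene's change of -0.13 ± 0.088 was not called (edgeR adjusted p 0.329). The change was -0.0039 without wild-type library 1 and -0.26 without wild-type library 2 (edgeR adjusted p 0.0698). Rnaseh2b (ENSMUSG00000021932, chromosome 14, 62292589 to 62372992, plus strand), an accessory subunit that binds the replication clamp PCNA, had 49.6 and 51.8 CPM in the cKO-labelled libraries, against 48.4 and 50.4 CPM in wild type. The libraries overlapped, with a change of 0.04 ± 0.075 and an edgeR adjusted p of 0.803. Of the exonic bases of Rnaseh2a, 14.7% are shared, 9.7% with Gm49661 on the same strand, which had 0 counts, and 5.0% with the peroxiredoxin gene Prdx2 on the opposite strand (0.08, edgeR adjusted p 0.419). Rnaseh2b shares 1.1% with Dleu7 and Cgas 4.9% with Gm8093, which had at most 7 and 2 counts in any library. Mto1, a mitochondrial tRNA-modifying gene 4971 bases from Cgas, changed by -0.19 (edgeR adjusted p 0.275).

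Rnaseh2c (ENSMUSG00000024925, chromosome 19, 5601873 to 5607019, plus strand), the other accessory subunit, had 57.4 and 53.9 CPM in the cKO-labelled libraries, against 65.1 and 63.1 CPM in wild type. The genotypes did not overlap, and the change of -0.20 ± 0.071, or 0.869-fold, was called lower with an edgeR adjusted p of 0.042. The call ended after removal of each library's trend with GC content (-0.08, edgeR adjusted p 0.501), with DESeq2 (adjusted p 0.194), and without wild-type library 1 (edgeR adjusted p 0.204), wild-type library 2 (edgeR adjusted p 0.0871) or cKO-labelled library 2 (edgeR adjusted p 0.211). The GC content of its longest transcript was 58.1%, against 54.2% for Rnaseh2a and 44.9% for Rnaseh2b. Kat5, an acetyltransferase gene on the opposite strand that covers 426 of its 1715 exonic bases, had 44.7 and 49.2 CPM in cKO-labelled libraries, against 51.1 and 50.0 CPM in wild type, with a change of -0.11 ± 0.078 (edgeR adjusted p 0.376). The library kit does not mark strand. Of 33 protein-coding genes whose exonic bases all lie within genes of the opposite strand and none within the same strand, 32 (97%) had no count. This was so for 39 of 54 (72.2%) with at least 90% shared in that way, and for 34.3% of those that share none. Rnaseh2c, with 24.8% shared, is in none of these groups. Without strand, reads from such shared bases cannot be told apart.

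The subunits form one complex, and their count ratios were set side by side within each library. Rnaseh2b to Rnaseh2a was 1.16 and 1.23 in the cKO-labelled libraries, against 0.952 and 1.19 in wild type, a log2 difference of 0.17 with a two-sided exact permutation p of 0.667. Leaving out wild-type library 1 brought that difference to 0.006, and leaving out wild-type library 2 to 0.32. Rnaseh2c to Rnaseh2a was 1.34 and 1.28 in the cKO-labelled libraries, against 1.28 and 1.49 in wild type, a log2 difference of -0.08 with a two-sided exact permutation p of 0.667. It was 0.031 without wild-type library 2 and -0.18 without wild-type library 1. For both ratios the smallest p that 4 libraries allow is 0.333, and in both the wild-type libraries differed more from each other than the cKO-labelled ones did.

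**Figure D3:**
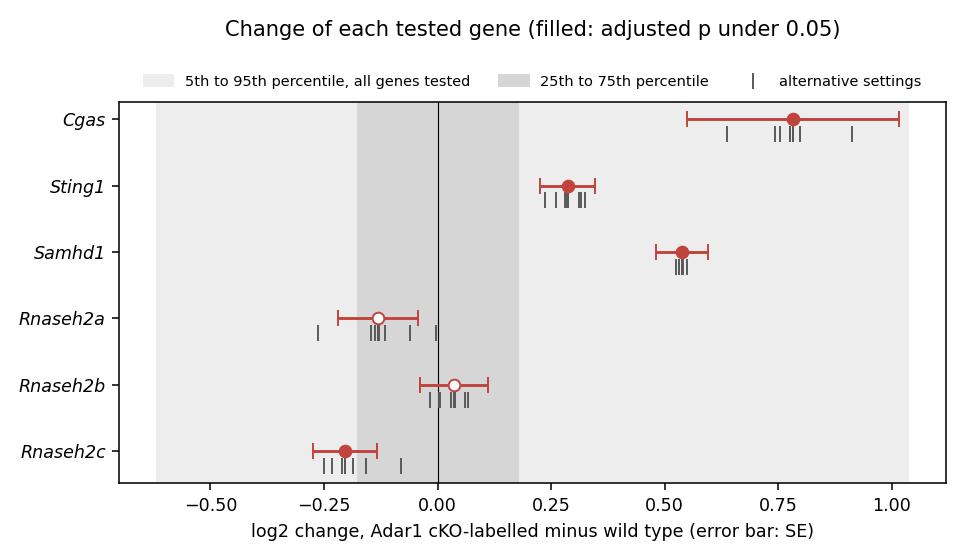
Log2 change (cKO-labelled minus wild type) of the 6 tested genes, with the SE as error bars and the 10 alternative settings as ticks under each point. Samhd1 lay between 0.53 and 0.55 and Sting1 between 0.24 and 0.32 under the alternatives. The shaded bands are percentiles of all genes tested, the wider one from -0.62 to 1.04 (5th to 95th).

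Levels of different genes were compared per length, in the FPKM values deposited by the authors. Sting1 was the highest per length, at 66.9 and 69.3 FPKM in the cKO-labelled libraries, against 57.2 and 54.1 FPKM in wild type. Rnaseh2c followed with 33.5 and 31.4 FPKM in cKO-labelled libraries and 37.8 and 36.8 FPKM in wild type, then Samhd1 with 28.4 and 28.0 FPKM in cKO-labelled libraries and 19.3 and 19.4 FPKM in wild type. Cgas stood lowest of the 6 measured genes, at 1.70 and 1.40 FPKM in the cKO-labelled libraries, against 0.910 and 0.890 FPKM in wild type. The order was the same in both genotypes, with Rnaseh2a (12.2 and 12.0 FPKM in cKO-labelled, 14.4 and 12.1 FPKM in wild type) above Rnaseh2b (7.95 and 8.30 FPKM in cKO-labelled, 7.71 and 8.07 FPKM in wild type). No neighbours in that order overlapped in their ranges over libraries. Among the ribonuclease H2 subunits, Rnaseh2c was the highest per length, and its 426 bases shared with Kat5 are part of the length used. That length merges the exons of all annotated transcripts, 6243 bases for Rnaseh2b and 3509 for Rnaseh2a. The order rests on it, and which transcripts the cells used was not tested. In CPM, Samhd1 stood above Sting1, at means of 258 against 187 in cKO-labelled libraries and 178 against 153 in wild type.

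**Figure D4:**
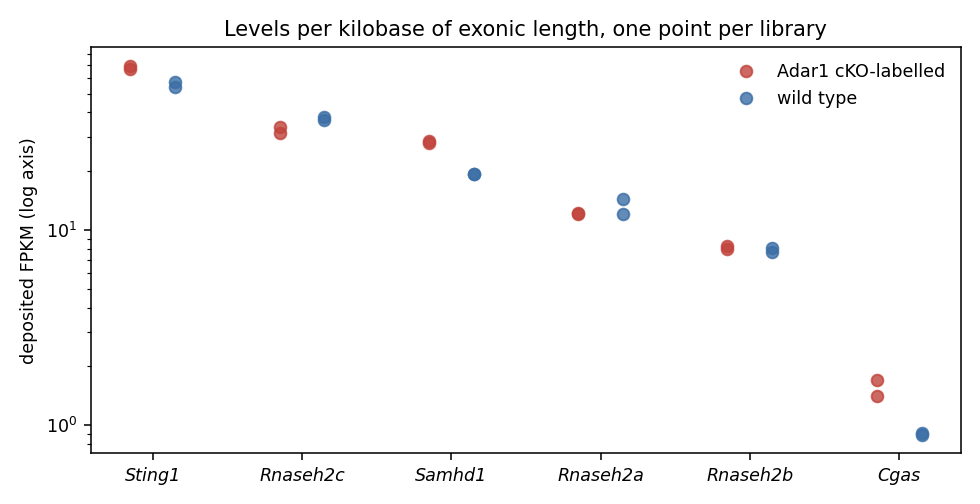
Deposited FPKM (log axis) of the 6 measured genes in each library, ordered by level, with cKO-labelled libraries left of wild type. Sting1 lies between 54.1 and 69.3 FPKM and Cgas between 0.890 and 1.70 FPKM.

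The genes whose pattern over the 4 libraries was most like each of the 6 were found by the Euclidean distance between mean-centred log2 CPM, among tested genes of at least 5 CPM. For Cgas these were Hmmr (distance 0.0916, change 0.71) and Nusap1 (distance 0.103, change 0.79). Samhd1 was nearest to Pclaf (distance 0.0258, change 0.54) and Sgo2a (distance 0.0281, change 0.52), and Sting1 to Krba1 (distance 0.0121, change 0.28) and Eme1 (distance 0.0166, change 0.28). The nearest to Rnaseh2a were Uqcr11 (distance 0.0155) and Isoc2a (distance 0.0163), to Rnaseh2b Gosr1 (distance 0.0103) and Man1a2 (distance 0.0114), and to Rnaseh2c AI597479 (distance 0.00707) and Bcl9l (distance 0.0138). Each distance rests on 4 libraries.

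The counts in the related lists that follow are to be read beside the 12.2% higher and 9.54% lower calls over all genes tested, and none of the lists was tested as a set. Of 14 tested kinases, adaptors and transcription factors downstream of STING, 4 were called higher and 0 lower (all genes tested, 21.7% in either direction), with a median change of 0.09. Tank, an adaptor of TBK1, had 153 and 139.8 CPM in the cKO-labelled libraries, against 91.9 and 100.9 CPM in wild type, a change of 0.60 ± 0.066 (edgeR adjusted p 2.43e-07). Traf6, a ubiquitin ligase of NF-kB signalling, changed by 0.34 ± 0.066 (edgeR adjusted p 0.000395), the kinase gene Ikbke by 0.25 ± 0.072 (edgeR adjusted p 0.0148), and Tbkbp1, another TBK1 adaptor, by 1.33 ± 0.37 on 53 and 52 counts in cKO-labelled libraries, against 24 and 19 in wild type (edgeR adjusted p 0.0112). Tbk1 itself had 75.6 and 77.9 CPM in cKO-labelled libraries, against 66.8 and 74.0 CPM in wild type (0.12 ± 0.068, edgeR adjusted p 0.223), and Irf3 had 97.4 and 93.9 CPM in cKO-labelled libraries, against 97.4 and 96.9 CPM in wild type (-0.02 ± 0.062, edgeR adjusted p 0.862).

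Of 23 tested regulators of the cGAS and STING proteins, 5 were higher, 1 lower and 17 not called, with a median of -0.01. This total is near the 21.7% called over all genes tested. Lower calls numbered 0 without wild-type library 2, and 2 without wild-type library 1 or without cKO-labelled library 2. The ubiquitin ligase genes Trim30a (1.40 ± 0.059, edgeR adjusted p 1.09e-14) and Trim56 (0.49 ± 0.061, edgeR adjusted p 1.9e-06) rose, as did Usp18 (3.13 ± 0.079, edgeR adjusted p 4.87e-18), which removes ISG15 from proteins. Nlrc3, which encodes an inhibitor of STING, had 11.4 and 12.5 CPM in cKO-labelled libraries, against 6.15 and 6.71 CPM in wild type (0.90 ± 0.17, edgeR adjusted p 0.000418). Trim14 was the fifth higher gene (0.68 ± 0.089, edgeR adjusted p 3.44e-06), with 38.0% of its exonic bases shared with another gene. The lower gene was Insig1, an endoplasmic reticulum protein best known from sterol control, at -0.25 ± 0.062 (edgeR adjusted p 0.00422).

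Genes that hydrolyse or carry cGAMP were the related group in which no call was higher. Of 8 tested, 4 were lower (all genes tested, 9.54%) and 4 not called, with a median of -0.19. Enpp1, which encodes the ectoenzyme that hydrolyses cGAMP, had 3.22 and 3.95 CPM in the cKO-labelled libraries, against 6.44 and 5.59 CPM in wild type (-0.74 ± 0.24, edgeR adjusted p 0.0292). Slc19a1, the reduced folate carrier, which imports cGAMP in human cells, had 54.1 and 47.9 CPM in cKO-labelled libraries, against 66.1 and 69.0 CPM in wild type (-0.41 ± 0.075, edgeR adjusted p 0.000264). The volume-regulated channel subunit genes Lrrc8d (-0.37 ± 0.066, edgeR adjusted p 0.000222) and Lrrc8b (-0.37 ± 0.12, edgeR adjusted p 0.0239) were also lower. Other subunit genes of that channel were not called, Lrrc8a at 0.45 ± 0.32 (edgeR adjusted p 0.374) and Lrrc8c at -0.02 ± 0.084 (edgeR adjusted p 0.897). Nor were P2rx7 (0.11 ± 0.31) and Abcc1 (0.06 ± 0.065). With DESeq2, 2 genes of this group were called, both lower.

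Other DNA-binding sensors and cofactors, 26 of which were tested, included 5 higher and 3 lower genes (all genes tested, 12.2% and 9.54%), with a median of 0.05. With the GC trend removed, 1 was lower. Zbp1, a sensor of Z-form nucleic acids, had 223 and 216 CPM in cKO-labelled libraries, against 77.4 and 73.1 CPM in wild type (1.55 ± 0.062, edgeR adjusted p 4.48e-15). The IFI200 genes Ifi203 (0.71 ± 0.057, edgeR adjusted p 1.35e-09) and Ifi204 (2.29 ± 0.27, edgeR adjusted p 7.23e-07) rose, with the reservation that reads of close paralogs such as these may not be told apart. Aim2, which builds the DNA inflammasome, had a change of 0.07 ± 0.066 (edgeR adjusted p 0.497). The other higher genes were Hmgb2 and Mre11a, and the lower ones included the helicase gene Ddx41 and the DNA end-binding gene Xrcc6.

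Among 23 other tested genes of DNA and RNA degradation, 6 were higher and 4 lower, with a median of 0.04, where all genes tested had 12.2% higher and 9.54% lower. The lower calls numbered 2 with DESeq2 and on leaving out wild-type library 1, wild-type library 2 or cKO-labelled library 1. Isg20, an exonuclease gene, had 55.7 and 48.99 CPM in cKO-labelled libraries, against 16.1 and 15.7 CPM in wild type (1.72 ± 0.099, edgeR adjusted p 3.39e-12). Dnase1l3, whose secreted enzyme digests chromatin DNA, had 25.2 and 29.5 CPM in cKO-labelled libraries, against 12.6 and 10.5 CPM in wild type (1.25 ± 0.13, edgeR adjusted p 1.28e-07). Pld4, a lysosomal exonuclease of single-stranded nucleic acids, was lower, at 114 and 113 CPM in cKO-labelled libraries, against 162 and 153 CPM in wild type (-0.47 ± 0.060, edgeR adjusted p 2.81e-06). The lysosomal DNase gene Dnase2a was lower at -0.24 ± 0.080 (edgeR adjusted p 0.0355), as were Dnase1 and Skiv2l, which encodes the helicase of the cytosolic RNA exosome and is not itself a nuclease. Rnaseh1, the other ribonuclease H of the cell, changed by -0.001 ± 0.083 (edgeR adjusted p 0.996).

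Of 15 other genes mutated in inherited interferonopathies, all tested, 9 were higher and 4 lower (all genes tested, 12.2% and 9.54%). The median change was 0.33. The 9 higher genes include Adar itself, the targeted gene, whose direction went against the label. The lower calls numbered 2 without wild-type library 1, wild-type library 2 or cKO-labelled library 2, 2 with the GC trend removed and 1 with DESeq2. Usp18 and Isg15 (2.14 ± 0.078, edgeR adjusted p 9.09e-16) were higher, as was Ifih1, which encodes the double-stranded RNA sensor MDA5 (1.78 ± 0.071, edgeR adjusted p 4.96e-15). The lower genes were Acp5, Dnase2a, Atad3a and Skiv2l, of which Skiv2l changed by -0.37 ± 0.060 (edgeR adjusted p 7.22e-05). Usp18, Isg15, Dnase1l3, Dnase2a and Skiv2l, among others, stand in more than 1 of the related lists, Usp18 and Isg15 also in the interferon-induced list.

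Genes that supply the deoxynucleotides that SAMHD1 degrades were split. Of 14 tested, 4 were higher and 1 lower (all genes tested, 12.2% and 9.54%), with a median of -0.08. The ribonucleotide reductase genes Rrm2 (281 and 275 CPM in cKO-labelled libraries, against 193 and 206 CPM in wild type, 0.48 ± 0.059, edgeR adjusted p 1.46e-06) and Rrm1 (0.28 ± 0.056, edgeR adjusted p 0.000677) rose, and so did the deoxycytidine kinase gene Dck (0.44 ± 0.076, edgeR adjusted p 0.00012). The thymidylate synthase gene Tyms was the other higher gene and Nme1 the lower one. Leaving out wild-type library 2 left 3 calls, all higher. Of 17 tested partners of ribonuclease H2 in ribonucleotide excision, 2 were higher and 1 lower, near the 21.7% called over all genes tested, with a median of -0.001. Without wild-type library 2, and with the replicate block, 2 were lower. Pold1, the catalytic subunit of DNA polymerase delta, was lower at -0.40 ± 0.059 (edgeR adjusted p 2.08e-05), and Top1 was higher at 0.26 ± 0.059 (edgeR adjusted p 0.0019). Fen1, the flap nuclease, was called higher at 0.39 ± 0.084 (edgeR adjusted p 0.00161) although 84.2% of its exonic bases are shared with genes of the opposite strand. Pcna changed by -0.05 ± 0.054 (edgeR adjusted p 0.618).

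For scale, all 12 genes of a list induced by type I interferon were higher, with a median of 3.02 and a range from 1.02 to 4.49, so that each change exceeded those of Cgas (0.78), Samhd1 (0.54) and Sting1 (0.29). Mx1 rose by 3.15 ± 0.098 and Oasl2 by 3.11 ± 0.099 (edgeR adjusted p 1e-16 each). The rise of these genes in the same libraries was already known when the lists were drawn up.

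**Figure D5:**
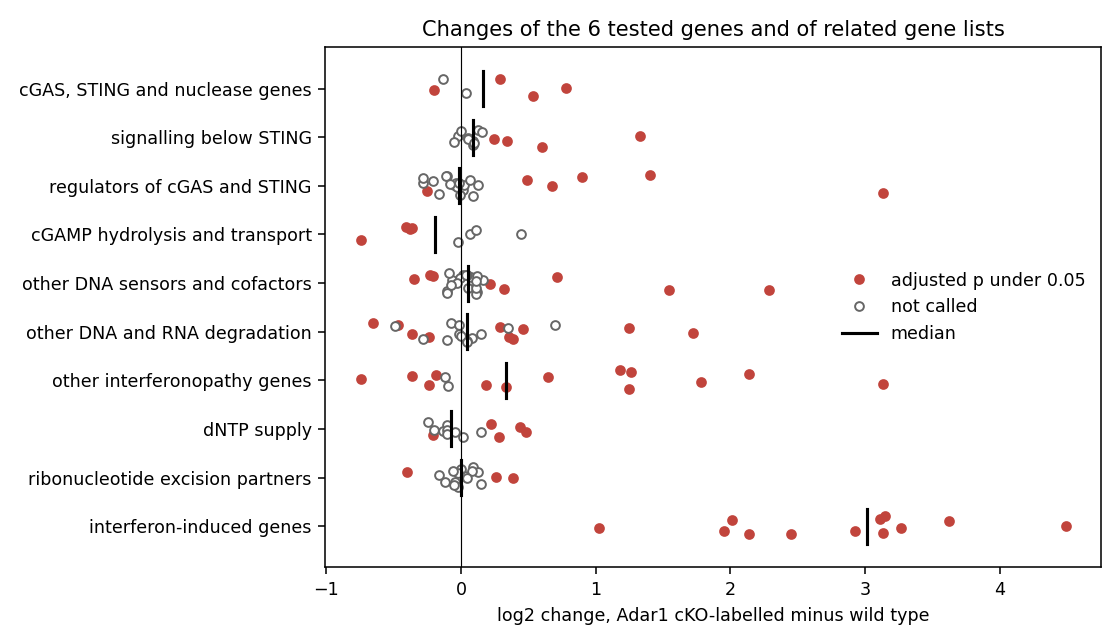
Log2 change (cKO-labelled minus wild type) of every tested gene in the 7-gene group and in 9 related lists, filled where the edgeR adjusted p was under 0.05, with the median as a bar. The medians are 0.16 for the 6 tested genes, -0.19 for cGAMP hydrolysis and transport and 3.02 for interferon-induced genes.

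Markers of other cells were read beside these results, since myeloid cells also express cGAS, STING and SAMHD1. The 8 dendritic cell markers summed to 108 and 113 CPM in the cKO-labelled libraries, against 58.4 and 57.1 CPM in wild type, with 3 of 4 tested members higher and Cd209a and Clec10a at 0. The 11 macrophage markers summed to 48.2 and 57.3 CPM in cKO-labelled libraries, against 130 and 124 CPM in wild type. Most of that sum was Adgre1 alone, at a mean of 35.3 CPM in cKO-labelled libraries and 109 CPM in wild type. Of 6 tested, Adgre1 was lower and Vcam1 higher, and Csf1r, Cd68, Lyz2 and C1qb were not called. T-cell markers summed to 128 and 137 CPM in cKO-labelled libraries, against 166 and 157 CPM in wild type, nearly all of it Lck, while Cd3e had at most 3 counts in any library. NK-cell markers summed to 4.89 and 4.76 CPM in cKO-labelled libraries, against 1.22 and 1.47 CPM in wild type. Neutrophil markers summed to 3.11 and 4.18 CPM in cKO-labelled libraries, against 1.16 and 1.22 CPM in wild type, with Ly6g at 0. The part of these cells in the changes of the 7 genes was not tested.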

How the data were processed

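Poly(A) RNA of 4 libraries was sequenced. Per the labels' protocols, RNA was isolated with RNeasy and libraries were made with a NEB poly(A) module and NEBNext Ultra, a kit that does not mark strand. The submitters' processing notes name the counter HTSeq (0.6.1), the aligner HISAT2 (2.0.1), cutadapt (1.9.1), bcl2fastq (2.17.1.14) and the GRCm38 build. The sources used here give neither their settings, strand included, nor an annotation release. The authors deposited 1 table with raw read counts per gene and with FPKM, which was recomputed from counts and lengths to within 0.0050. Of its rows, 55141 (99.53%) matched GENCODE M21 by ID, and its exonic lengths equal those of M21 for all 7 genes.

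From the counts, edgeR 4.0.16 (limma 3.58.1, R 4.3.3) was run with filterByExpr (minimum count 10, minimum total 15), TMM scaling and a quasi-likelihood test of the Adar1 cKO label against wild type over 14180 genes, with calls at a Benjamini-Hochberg adjusted p under 0.05. The SE is the size of the log2 change divided by the square root of F. One count equalled 0.0509 to 0.058 CPM, and intervals and floors (3 counts) cover counting error only. Wild-type library 2 held 103262 counts on ribosomal RNA rows, against 16530 to 21714 in the other libraries. The 2 libraries of each genotype differed by more than counting noise (chi-square per gene 4.66 in cKO-labelled and 9.23 in wild type). On simulated data, 100% of 67 genes changed 4-fold, 100% of 67 changed 2-fold and 92.4% of 66 changed 1.5-fold were called, with 10 false calls of 205. Those 205 calls were among 14157 genes, far fewer than the 3080 called in the real data, so the rates may not carry over. Recovery was not split by count level and is not known for genes with as few counts as Cgas. Smaller changes, such as those of Samhd1, Sting1 and Rnaseh2c, were not simulated, so their recovery is not known.

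The alternatives were RLE size factors, DESeq2 1.42.0, no filter, a replicate block, removal of each library's GC trend, omission of ribosomal RNA rows, and omission of each library. Exon sharing was read from GENCODE M21 and promoter windows from RefSeq on GRCm38.p6. The named genes are the 7 genes and Adar, the 3 called genes of smallest p in each related list, the 2 nearest in pattern to each gene, and genes that overlap one or lie within 5 kb. Other list genes were named after their values were seen, and most list genes are reported only within the counts, some being not reported here. The members and lists were chosen with earlier results of these data known.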

Additional observations from a re-analysis of the deposited data

How the results depend on the processing

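Samhd1 and Sting1 kept their calls under all 10 alternatives, and Rnaseh2a and Rnaseh2b were called under none of them. RLE size factors, no filter on low counts and omission of ribosomal RNA rows changed no call among the 6 genes. With DESeq2, 2030 genes were called (1235 higher, 795 lower), against 3080 (1727 higher, 1353 lower) with edgeR; the calls of Cgas (0.78, DESeq2 adjusted p 0.0769) and Rnaseh2c (-0.20, DESeq2 adjusted p 0.194) were lost, and 2 of the cGAMP genes were called. With the GC trend removed, Rnaseh2c was -0.081 (edgeR adjusted p 0.501) and Rnaseh2b turned to -0.0158 (edgeR adjusted p 0.925). Leaving out 1 library at a time, with the lone library assumed to vary like those of the other genotype, gave 2277 to 2713 called genes, 0.64 to 0.91 for Cgas, -0.25 to -0.16 for Rnaseh2c, 3 to 5 called genes of deoxynucleotide supply, 0.006 to 0.324 for the log2 difference in the Rnaseh2b to Rnaseh2a ratio, -0.184 to 0.031 for that of Rnaseh2c to Rnaseh2a and 0.326 to 0.653 for that of Cgas to Sting1. The cause of these differences was not tested. The labels do not say that a replicate number marks a shared mouse or day, and same-numbered libraries deviated together with a correlation of only 0.018. With the replicate block, 3498 genes were called (1904 higher, 1594 lower) and the calls of all 6 genes stayed, at edgeR adjusted p 0.0122 for Cgas, 4.57e-05 for Sting1, 1.27e-15 for Samhd1, 0.0247 for Rnaseh2c and 0.276 for Rnaseh2a. Depth limits Cgas, with 65 to 126 counts per library, more than the other 5 genes, which had at least 735.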

Other observations

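Several genes of the related lists share a large part of their exonic bases with another annotated gene. Beside Fen1 (84.2% of exonic bases shared with another gene), these include Lrrc8a (68.3%), which encodes the obligate subunit of the volume-regulated channel, Rnf26 (65.2%), a ubiquitin ligase gene, and Nme2 (48.9%), a nucleoside diphosphate kinase gene. Dnase2a shared 30.0%. Whether reads on the shared bases were counted for these genes was not tested. Trex2, the relative of Trex1, and the IFI200 gene Ifi202b were listed at 0 in all 4 libraries. Unlike Trex1, neither shares exonic bases with another annotated gene. The reservation on close paralogs given for Ifi203 and Ifi204 holds for Ifi202b too, and its 0 is not read as absence of mRNA.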
